A study of Saccharomyces cerevisiae with 8 samples.

Results

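The expression of 10 genes of budding yeast that are repressed by glucose, serve glucose synthesis or control that switch was examined. They were found by name among the 6225 genes on the array. They are the regulators CAT8, ADR1 and MIG1, the gluconeogenic enzyme genes PCK1, FBP1 and MDH2, the glyoxylate cycle genes ICL1 and MLS1, the invertase gene SUC2 and the alcohol dehydrogenase gene ADH2. All 10 had a probe, and 9 passed the filter on dim signals as 5394 genes did in all. MLS1 did not pass it and is given by its levels.

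Total RNA came from cultures of Saccharomyces cerevisiae, strain BY4147 in the labels' spelling, grown in the rich medium YPD. The groups were wild type (WT) and an htz1 deletion strain (htz1D), each harvested without added salt or 20 minutes after NaCl was brought to 0.4 M. Each of these 4 groups had 2 biological replicates, and each culture was read on 1 single-colour array. The controls differ from the deletion strain by HTZ1 alone as far as the labels say, and the labels do not say how the deletion was made or how many clones were used. HTZ1 encodes the histone variant H2A.Z.

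In yeast, glucose is fermented first, and genes for other carbon sources are held down while it lasts. Mig1 represses such genes by recruiting the corepressor Cyc8-Tup1, and the kinase Snf1 relieves this when glucose runs low. Snf1 also acts through the activators Cat8 and Adr1, which turn on genes for ethanol and acetate use, the glyoxylate cycle and gluconeogenesis. The enzymes Fbp1, Pck1, Mdh2 and Icl1 are removed again when glucose returns, the first of these being the classic substrate of the GID ubiquitin ligase. Transcript levels say nothing of that step.

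Levels are given as the signal in percent of the 75th percentile of the same array, a scale that compares arrays for 1 gene but not 1 gene with another. Changes are log2 differences of group means with limma's standard error (SE). A gene passed if its limma p, adjusted by Benjamini-Hochberg over all 5394 genes, was under 0.05. Every group had 2 arrays (n = 2), and the moderated spread was shared over all 8. HTZ1 was at least 65.7-fold lower in htz1D without salt (log2 change −8.41, SE 0.15, limma adjusted p = 3.91e-07) and at least 75.5-fold lower with salt (−8.67). The salt marker GPD1, a glycerol synthesis gene, rose 26.0-fold in WT and 19.6-fold in htz1D, and the glycerol transporter gene STL1 rose at least 307-fold and at least 446-fold. The words "at least" mark a gene whose probe failed the background test on both arrays of the dimmer group. Its bound sets the brighter group's mean against the higher of the gene's own dim value and the lowest signal well above background. The brighter group needed only 1 array well above background, and the bound takes no account of the spread between arrays. Replicate arrays correlated across genes at r = 0.987 to 0.993. All arrays were on 1 slide, with WT in its first row and htz1D in its second and the salt arrays in its last 2 columns, so slide position cannot be told apart from strain or treatment. A change in every cell and a larger change in some of the cells cannot be told apart in RNA from whole cultures.

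The 2 activator genes rose with salt in both strains. CAT8, which encodes the activator of gluconeogenic genes, stood at 5.88 and 6.98% in WT without salt and at 61.0 and 63.1% with salt. In htz1D it stood at 1.86 and 7.51% without salt and at 27.7 and 30.6% with salt, the value of 1.86% being the only one not well above background. Salt and no-salt arrays were far apart in each strain. CAT8 rose 9.68-fold in WT (log2 change 3.28, SE 0.54, limma adjusted p = 0.00161) and 7.78-fold in htz1D (2.96, SE 0.54, adjusted p = 0.00248). The htz1D change was 1.96 without htz1D no-salt replicate 1 and 3.97 without replicate 2. Both htz1D salt arrays lay below both WT salt arrays, yet the strain difference with salt did not pass (−1.09, SE 0.54, adjusted p = 0.191). That difference passed in 3 of 13 alternatives, namely with either htz1D no-salt array left out (adjusted p = 0.00372) and in the authors' deposited values (−0.83, adjusted p = 0.00705). It did not pass in the other 10, where adjusted p ranged up to 0.409. Without salt the strain difference was −0.78 (adjusted p = 0.368).

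ADR1, whose product activates ADH2 and genes of peroxisomal and ethanol metabolism, stood at 20.0 and 24.4% in WT without salt and at 57.5 and 74.3% with salt. In htz1D it stood at 16.9 and 30.4% without salt and at 45.8 and 67.5% with salt. The salt arrays did not overlap the no-salt arrays in either strain. The rise was 2.96-fold in WT (1.57, SE 0.31, limma adjusted p = 0.00388) and 2.45-fold in htz1D (1.29, SE 0.31, adjusted p = 0.00868). The strains differed by 0.04 without salt (adjusted p = 0.947) and by −0.23 with salt (adjusted p = 0.628), and their arrays overlapped in both conditions.

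MIG1, which encodes the zinc finger repressor, passed in no comparison. Its levels were 55.9 and 45.5% in WT without salt and 73.2 and 59.1% with salt. In htz1D they were 57.0% on both arrays without salt and 77.1 and 69.9% with salt. The salt arrays were the higher ones in both strains, but the differences of 0.38 (SE 0.15, limma adjusted p = 0.0655) and 0.36 (adjusted p = 0.0747) did not pass. The WT difference passed without WT salt replicate 2 (0.54, adjusted p = 0.0418), and the htz1D difference in the authors' deposited values (0.34, adjusted p = 0.0391). Between the strains MIG1 differed by 0.18 without salt and 0.16 with salt, with adjusted p = 0.473 and 0.497.

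**Figure D1:**
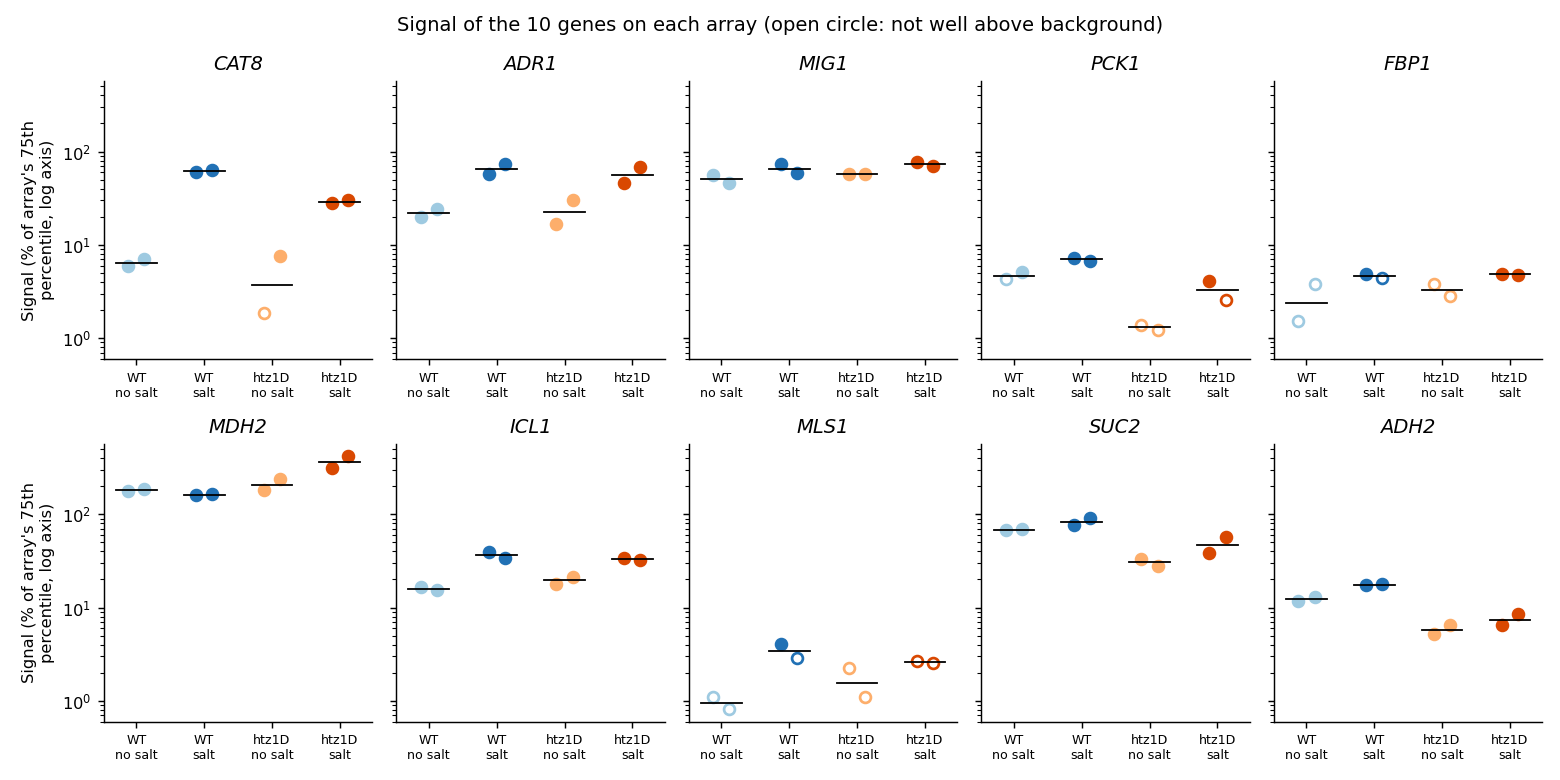
Signal of each of the 10 genes on each of the 8 arrays, in percent of the array's 75th percentile on log axes, with 1 panel per gene and the arrays grouped as WT and htz1D without and with salt. Open circles are spots not well above background. CAT8 goes from 5.88 and 6.98% to 61.0 and 63.1% in WT, while MLS1 is above background on 1 array.

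The gluconeogenic enzyme genes did not move as a group. PCK1, which encodes phosphoenolpyruvate carboxykinase, was dim on every array. It read 4.27 and 5.06% in WT without salt and 7.21 and 6.75% with salt. In htz1D it read 1.39 and 1.23% without salt and 4.12 and 2.57% with salt. Only the 2 WT salt arrays, 1 WT array without salt and 1 htz1D salt array were well above background. The htz1D arrays lay below the WT arrays in each condition. Without salt PCK1 was lower in htz1D by a measured log2 change of −1.83 (SE 0.22, limma adjusted p = 0.00315). The bound on that difference was 1.22-fold, and it includes a WT array not well above background. With salt it was again lower, at −1.10 (SE 0.22, adjusted p = 0.0134). Salt raised PCK1 in htz1D (1.32, SE 0.22, adjusted p = 0.00158), where no bound above 1 could be given, and in WT the difference of 0.59 did not pass (adjusted p = 0.0521), but did with either htz1D salt array left out (adjusted p = 0.0134). Under the normexp background correction none of these calls held, the strain difference without salt was 0.37 and the htz1D salt response was −0.62. Its normexp log2 value was −2.31 on htz1D no-salt replicate 2 and −4.27 on replicate 1, beside −3.70 and −3.62 in WT without salt. Whether that replicate 2 array accounts for the turned signs was not tested. The strain call with salt was also lost under quantile scaling (−0.89, adjusted p = 0.0539), in the authors' deposited values (−0.26, adjusted p = 0.0517), and with either WT salt array left out, and the value ranged from −1.44 to −0.76 with 1 array left out. The htz1D salt call was lost in the authors' deposited values (0.18, adjusted p = 0.0899).

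FBP1, which encodes fructose-1,6-bisphosphatase, was also near background. It read 1.52 and 3.83% in WT without salt and 4.90 and 4.37% with salt. In htz1D it read 3.85 and 2.80% without salt and 4.86 and 4.78% with salt. It was well above background in both htz1D salt arrays and 1 WT salt array, and nowhere without salt. The salt arrays were the higher ones in both strains, but the measured differences did not pass. They were 0.94 in WT (SE 0.38, limma adjusted p = 0.0698) and 0.55 in htz1D (adjusted p = 0.251). The bounds of 1.07-fold and 1.21-fold take no account of spread, and that of WT includes a salt array not well above background. No comparison of FBP1 passed over all arrays, but calls turned on the WT arrays without salt, none of them above background. Without replicate 2 of that group the WT salt change was 1.61 (adjusted p = 0.00143) and the strain difference without salt 1.11 (adjusted p = 0.0378), and without replicate 1 the WT salt change was 0.27. With either of these arrays left out the htz1D salt change passed (0.55, adjusted p = 0.0342).

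MDH2, which encodes the cytosolic malate dehydrogenase of gluconeogenesis, was bright on every array and was higher in htz1D once salt was present. It read 178 and 187% in WT without salt and 160 and 165% with salt. In htz1D it read 181 and 237% without salt and 312 and 417% with salt. The 2 htz1D salt arrays were above the other 6. MDH2 rose 1.74-fold with salt in htz1D (0.80, SE 0.18, limma adjusted p = 0.00671), and the WT difference was −0.17 (adjusted p = 0.444). With salt it was 2.22-fold higher in htz1D than in WT (1.15, SE 0.18, adjusted p = 0.00581), and without salt the difference was 0.18 (adjusted p = 0.54). The test of the difference between the salt responses did not pass (interaction 0.97, SE 0.25, unadjusted p = 0.00596, adjusted p = 0.162). The 2 called changes of MDH2 passed in all 13 alternative settings. Of its isozymes, mitochondrial MDH1 rose with salt in WT (0.83) and htz1D (0.59), and peroxisomal MDH3 read 0.20 and 0.06 without passing. The strain differences of MDH1 and MDH3 with salt were 0.21 and 0.18, and neither passed.

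Of the genes that define the glyoxylate cycle, ICL1 rose with salt in both strains, and MLS1 was too dim to test. ICL1, which encodes isocitrate lyase, stood at 16.4 and 15.5% in WT without salt and at 39.1 and 34.2% with salt. In htz1D it stood at 17.8 and 21.5% without salt and at 33.6 and 32.4% with salt. No salt array overlapped a no-salt array. ICL1 rose 2.29-fold in WT (1.20, SE 0.13, limma adjusted p = 0.00023) and 1.69-fold in htz1D (0.76, SE 0.13, adjusted p = 0.00208). The htz1D response minus that of WT was −0.44, which did not pass (adjusted p = 0.416), and the strains differed by 0.29 without salt and −0.15 with salt without passing.

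MLS1, which encodes malate synthase, the enzyme after isocitrate lyase, was well above background on 1 of the 8 arrays. It read 1.10 and 0.816% in WT without salt and 4.09 and 2.90% with salt, the first of these being the array above background. In htz1D it read 2.25 and 1.09% without salt and 2.66 and 2.52% with salt. The WT salt arrays were the highest, and both WT arrays and 1 htz1D array without salt were the lowest. With no filter on dim probes its WT salt change was 1.86 (limma adjusted p = 0.0067), a value that rests on signals at background. Its paralog DAL7, a malate synthase gene of nitrogen metabolism, rose with salt by 0.61 in WT (adjusted p = 0.00405) and 0.37 in htz1D (adjusted p = 0.0319), and signal shared between the paralogs cannot be told apart.

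SUC2 and ADH2 were lower in htz1D in both conditions. SUC2, the invertase gene that is the textbook target of Mig1, read 67.4 and 68.6% in WT without salt and 76.5 and 90.7% with salt. In htz1D it read 33.2 and 28.0% without salt and 38.1 and 57.0% with salt. Every htz1D array lay below every WT array. SUC2 was 2.23-fold lower in htz1D without salt (−1.16, SE 0.20, limma adjusted p = 0.0124) and 1.79-fold lower with salt (−0.84, SE 0.20, adjusted p = 0.0259). It rose with salt in htz1D (0.61, SE 0.20, adjusted p = 0.0328), and the WT difference of 0.29 did not pass (adjusted p = 0.249). The htz1D salt call was lost in 4 of 13 alternatives. The strain calls were lost under normexp (−0.79 and −0.68). Without salt the call was also lost when either WT no-salt array was left out, and with salt when WT replicate 2 or htz1D replicate 1 was left out, always with SUC2 lower in htz1D.

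ADH2, which encodes the alcohol dehydrogenase that consumes ethanol, read 11.7 and 13.1% in WT without salt and 17.3 and 17.7% with salt. In htz1D it read 5.20 and 6.51% without salt and 6.49 and 8.52% with salt. Again every htz1D array lay below every WT array. ADH2 was 2.13-fold lower without salt (−1.09, SE 0.17, limma adjusted p = 0.00796) and 2.36-fold lower with salt (−1.24, SE 0.17, adjusted p = 0.00378). It rose 1.41-fold with salt in WT (0.50, adjusted p = 0.039), a call that was lost in 8 of 13 alternatives. The htz1D difference of 0.35 did not pass (adjusted p = 0.112). That htz1D difference passed with replicate number added to the fit as a block (adjusted p = 0.0306), and was 0.55 without htz1D salt replicate 1. Under normexp the strain calls were lost, at −0.15 without salt and −1.03 with salt. The call without salt was lost when WT no-salt replicate 2 was left out. ADH1, the main fermentative enzyme gene and close in sequence to ADH2, differed between strains by 0.42 and 0.13 without passing, and signal it may share with the ADH2 probe cannot be told apart.

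**Figure D2:**
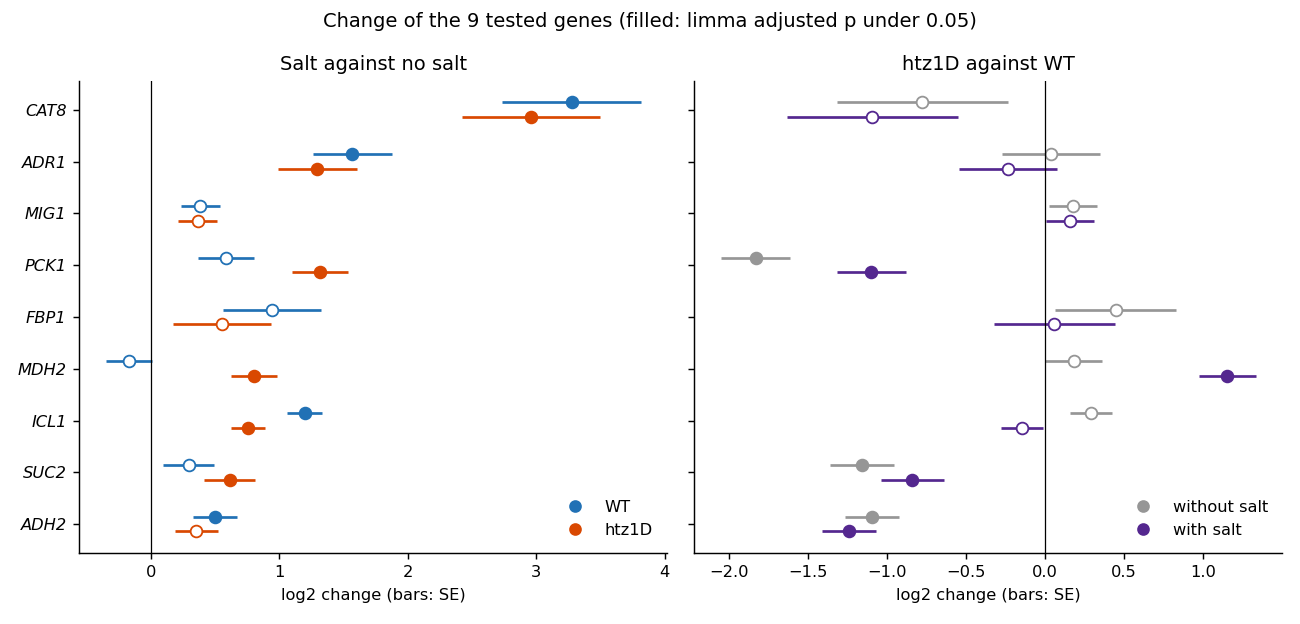
Log2 change of the 9 tested genes with SE bars, for salt against no salt in each strain on the left and htz1D against WT in each condition on the right. Filled points passed at limma adjusted p under 0.05. CAT8, ADR1 and ICL1 are filled for salt in both strains, and SUC2, ADH2 and PCK1 are filled below 0 for the deletion in both conditions.

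Counted over the 9 tested genes, 4 rose with salt in WT (CAT8, ADR1, ICL1 and ADH2) and 0 fell. Over all genes tested 31.2% rose and 25.7% fell in that comparison, so a call in it is common. In htz1D 6 rose (CAT8, ADR1, PCK1, ICL1, MDH2 and SUC2) and 0 fell, beside 29.3% and 29.1% of all genes. In each strain 7 of the 9 were under an unadjusted p of 0.05, all of them higher. Of all 5394 genes tested, 3338 in WT and 3404 in htz1D were under it. Those totals pool both directions and are no like measure for genes that are all higher. The share of all genes higher at that unadjusted p was not counted. Under normexp 1 gene, MDH2, was called in htz1D, and the rises of CAT8, ADR1 and ICL1 there (1.45, 0.99 and 0.40) did not pass. The median change of the 9 was 0.59 in WT and 0.76 in htz1D, beside 0.07 and 0.01 over all genes tested. These counts describe the genes and support nothing by themselves, because PCK1 passed the filter through the WT salt arrays alone and FBP1 through the htz1D salt arrays alone.

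Without salt 3 of the 9 were lower in htz1D (PCK1, SUC2 and ADH2) and 0 were higher, beside 6.32% and 7.36% of all genes. With salt the same 3 were lower and MDH2 was higher, beside 16.2% and 5.77% of all genes. The count with salt also includes PCK1, which entered the test through the WT salt arrays, the group where it is high. The median difference of the 9 was 0.04 without salt and −0.23 with salt, beside −0.04 and −0.07 over all genes. The split over all genes with salt depended on the scaling, with 311 higher and 872 lower here, 424 and 564 under quantile scaling, and 549 and 627 in the authors' deposited values. The comparisons within a condition share the arrays that the salt comparisons use. In the interaction, the htz1D salt response minus that of WT, 0 of the 9 passed by limma, and PCK1 (0.73, unadjusted p = 0.0481) and MDH2 were under an unadjusted p of 0.05. Over all genes 0.111% were higher and 0.89% lower in the interaction.

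**Figure D3:**
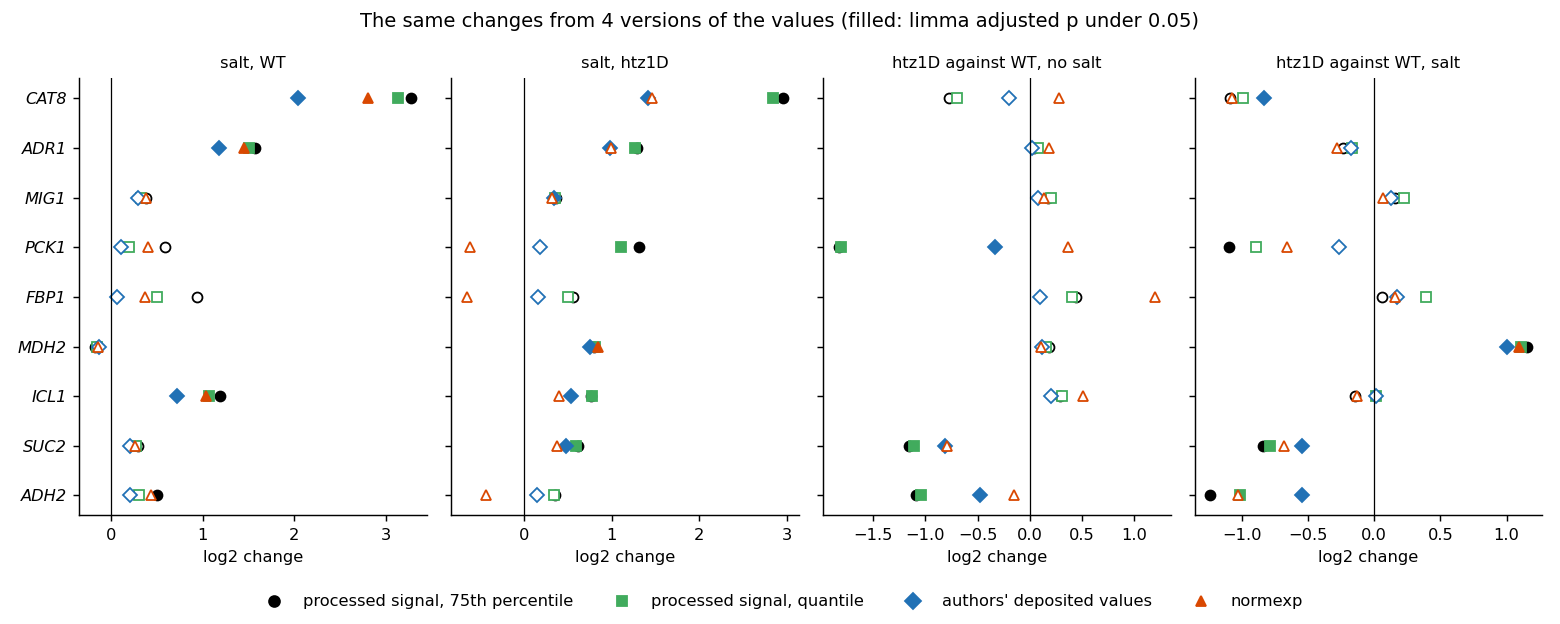
Log2 change of the 9 tested genes in 4 comparisons, each computed from 4 versions of the array values, the processed signal scaled to the 75th percentile, the same with quantile scaling, the authors' deposited values and normexp-corrected signals. Filled symbols passed at limma adjusted p under 0.05. MDH2 with salt lies between 1.00 and 1.15 in every version, whereas PCK1 without salt goes from −1.83 to 0.37, the latter under normexp.

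Related genes were grouped in 7 lists and described by counts in the same fits. Among 15 genes for the use of other carbon sources, 14 were tested, and with salt 10 rose and 1 fell in WT and 9 rose and 1 fell in htz1D, beside 31.2% and 25.7% of all genes in WT and 29.3% and 29.1% in htz1D. Of the 14, 7 (ADY2, CIT3, CYB2, IDP2, JEN1, REG2 and SFC1) passed the filter through salt groups alone, which favours higher readings there. Under normexp the calls fell to 5 in WT and 4 in htz1D. The mitochondrial acetaldehyde dehydrogenase gene ALD4, well above background on all arrays, rose by 4.61 in WT (SE 0.11, limma adjusted p = 2.52e-07) and 4.06 in htz1D. GUT2, the mitochondrial glycerol-3-phosphate dehydrogenase gene, rose by 3.17 in WT and also passed in htz1D. The lactate transporter gene JEN1 rose at least 2.65-fold and at least 2.73-fold. REG2, which encodes a regulatory subunit of the phosphatase Glc7, rose at least 2.88-fold and at least 1.75-fold. ICL2, a mitochondrial 2-methylisocitrate lyase gene related to ICL1, fell by 0.60 in WT and by 0.51 in htz1D.

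Of 11 maltose and galactose genes 6 were tested, and 5 rose with salt in each strain with 0 falling. The shares of all genes rising and falling were 31.2% and 25.7% in WT and 29.3% and 29.1% in htz1D. Under normexp the count of 5 became 1 in WT and 2 in htz1D. MAL33, a maltose activator gene, rose by 1.74 in WT and 1.63 in htz1D, and the maltose permease gene MAL31 by 1.37 and 2.04. The isomaltase gene IMA1 rose at least 1.24-fold and at least 1.27-fold. The galactokinase gene GAL1 rose at least 2.36-fold in WT and at least 2.58-fold in htz1D, and the permease gene MAL11 at least 2.53-fold in htz1D. MAL12, MAL32, IMA5, GAL3 and GAL4 were too dim to test. MAL11, MAL33, IMA1 and GAL1 passed the filter through salt groups alone, which favours higher readings there. The MAL and IMA genes are families of near-identical copies, and the probes may share signal.

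All 8 listed genes of the GID ubiquitin ligase, which marks gluconeogenic enzymes for breakdown, rose with salt in both strains. The list was chosen with earlier results of these data known, so its count and median describe the genes and support nothing by themselves. Of all genes 31.2% rose in WT and 29.3% in htz1D. The median change of the 8 was 1.69 in WT and 1.76 in htz1D, beside 0.07 and 0.01 over all genes. Under normexp 6 of the 8 passed in each strain, and 1 of the 8, RMD5, passed the filter through salt groups alone. VID30 rose by 2.06 in WT (SE 0.21, limma adjusted p = 0.000166) and 2.10 in htz1D, and VID28 by 1.78 and 2.04. UBC8, the ubiquitin-conjugating enzyme gene, rose by 1.96 in WT, and RMD5 at least 1.64-fold. In htz1D GID8 and FYV10 rose by 1.94 and 1.89. VID24, the substrate receptor for FBPase, was higher in htz1D than in WT by 0.84 without salt and 1.15 with salt, UBC8 by 0.78 without salt and GID7 by 0.47 with salt.

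In the Snf1 kinase pathway all 11 genes were tested, and with salt 5 rose and 0 fell in WT and 4 rose and 1 fell in htz1D. These counts are to be read against the 31.2% of all genes that rose in WT and the 29.3% that rose and 29.1% that fell in htz1D. The beta subunit gene SIP2 rose by 1.35 in WT and 1.06 in htz1D, and the catalytic subunit gene SNF1 by 0.50 and 0.77. GAL83, another beta subunit gene, rose by 0.48 in WT, and SIP1, the remaining one, by 0.56 in htz1D. TOS3, one of the kinases that activate Snf1, rose by 1.05 in WT and was higher in htz1D by 1.54 without salt and 0.89 with salt. ELM1, another such kinase gene, fell by 0.69 with salt in htz1D and was lower there than in WT by a log2 difference of −0.65. SIP1 was lower in htz1D without salt (−0.46).

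Among 10 other repressors and activators 9 were tested, SIP4 being too dim. With salt 1 rose and 3 fell in WT, beside 31.2% and 25.7% of all genes. In htz1D 0 rose and 2 fell, beside 29.3% and 29.1% of all genes. HAP4, the activator subunit gene for respiration, fell by 1.43 in WT and by 1.56 in htz1D. RDS2, an activator gene of gluconeogenesis, fell by 0.61 in WT, as did the corepressor gene TUP1 by 0.59, and MIG2 rose by 0.50. Between the strains NRG2 was higher in htz1D by 0.99 without salt (limma adjusted p = 0.0378) and 1.86 with salt (adjusted p = 0.00321). NRG1 was higher by 1.42 with salt (adjusted p = 0.00674), and MIG2 by 0.72 and 0.59. Nrg1 and Nrg2 are repressors of glucose-repressed genes, and Mig2 acts beside Mig1 on SUC2. ERT1, an activator gene of gluconeogenesis, was lower in htz1D, at −0.61 without salt and −1.13 with salt, and RDS2 was lower without salt (−0.70). Without salt 2 of the 9 were higher and 2 lower, beside 7.36% and 6.32% of all genes. With salt 3 were higher and 1 lower, beside 5.77% and 16.2% of all genes. The repressor gene MIG3 differed by 0.34 and 0.20 and TUP1 by −0.27 and 0.20, without passing.

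A list of 9 genes held isozymes of the enzymes described above and pyruvate carboxylases, which feed gluconeogenesis. With salt 3 rose and 3 fell in WT, beside 31.2% and 25.7% of all genes. In htz1D 3 rose and 2 fell, beside 29.3% and 29.1% of all genes. The mitochondrial alcohol dehydrogenase gene ADH3 fell by 1.45 in WT and by 1.00 in htz1D, whereas the pyruvate carboxylase gene PYC1 rose by 1.44 and 0.78. Its paralog PYC2 fell by 0.69 in WT. ADH4 fell by 0.96 in htz1D and with salt was lower there than in WT (−0.80), while ADH3 was higher (0.43).

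Another list held 7 genes, for the glycolytic steps opposite to FBP1 and PCK1 or for making or removing the inhibitor of fructose-1,6-bisphosphatase. With salt 3 rose and 1 fell in WT, beside 31.2% and 25.7% of all genes. In htz1D 3 rose and 0 fell, beside 29.3% and 29.1% of all genes. PFK26, which makes the allosteric inhibitor of fructose-1,6-bisphosphatase, rose by 2.01 and 1.91. FBP26, which removes that inhibitor, rose by 1.76 and 1.62. PYK2, the glucose-repressed pyruvate kinase gene, rose by 1.97 and 1.58 and was higher in htz1D than in WT by 1.24 without salt and 0.84 with salt. FBP26 was likewise higher in htz1D, by 0.65 and 0.51, and PFK2 fell by 0.44 in WT. The carbon-use list had few strain differences, with ALD4 (0.74) and DLD1 (0.47) higher in htz1D without salt, and with salt SFC1 at least 1.72-fold higher and REG2 (−0.85) and GUT1 (−0.64) lower. By limma 0 genes of these lists passed in the interaction, and between 0 and 4 genes of a list were under an unadjusted p of 0.05. Of all 5394 genes tested, 54 passed in the interaction and 653 were under that unadjusted p.

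**Figure D4:**
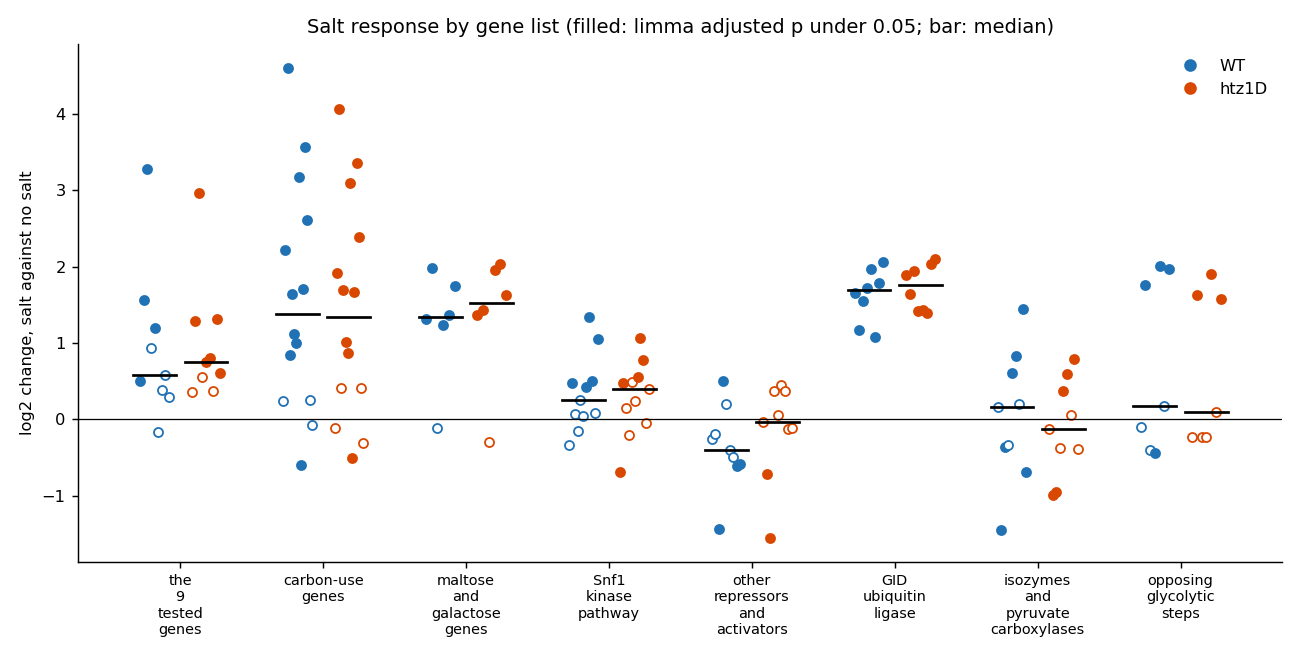
Log2 change with salt of each tested gene of the 9 described above and of 7 related lists, in WT and htz1D, with the median as a bar. Filled points passed at limma adjusted p under 0.05. All 8 listed GID genes are filled above 0 in both strains, while the repressors and activators have a median of −0.41 in WT. The lists were chosen with earlier results of these data known.

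The genes whose pattern over the 8 arrays lay closest to each tested gene were found by the Euclidean distance of log2 values after the gene's own mean was removed. For ICL1 these were RAD2 (distance 0.263), GTS1 (0.27) and HRD1 (0.279). For SUC2 they were FCY22 (0.397), NIT1 (0.406) and FMO1 (0.561), and for ADH2 AFB1 (0.248), RSC30 (0.404) and YHR054C (0.42). The nearest to ADR1 was ATG9 (0.449), to MDH2 VTC5 (0.595) and to MIG1 SSL1 (0.159). PCK1 lay nearest CSI1 (0.766), AEP2 and DCG1, and FBP1 nearest NUP42 (0.504). The nearest gene to CAT8 was HVG1, at 1.40, followed by NFG1 and YGL081W. The distance grows with the size of a gene's change, so it does not rank how close these matches are between genes. None of the 9 tested genes was among the nearest of another. MLS1 was not tested and was left out of the search.

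The place of the 10 genes on their chromosomes was read from the gene order of the R64 assembly, used for names and order only because the array was designed on build sacCer2. PCK1 is the 10th protein-coding gene from an end of chromosome XI. SUC2 is the 10th from an end of chromosome IX and ADH2 the 24th on chromosome XIII, followed by MDH2 (41st, chromosome XV) and CAT8 (47th, chromosome XIII). The other 5 genes lie between the 87th and the 317th place. No relation between place and strain difference was tested.

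The 2 genes on either side of each of the 10 were also read, a choice made after values had been seen. Of these 40 neighbours 32 were tested, of which 3 were higher and 4 lower in htz1D without salt and 1 higher and 7 lower with salt. Over all genes 7.36% were higher and 6.32% lower without salt and 5.77% and 16.2% with salt, and nothing is read from the neighbours' counts. Next to PCK1, the ubiquitin protease gene UBP11 was lower, at −1.30 without salt (SE 0.12, limma adjusted p = 0.000965) and −0.76 with salt, and BAS1, a transcription factor gene of purine and histidine synthesis, was lower with salt (−1.45). ESL2 on the other side differed by 0.20 and 0.21 without passing. Near SUC2, NIT1 was lower, at −1.13 without salt (adjusted p = 0.00185) and −0.76 with salt, whereas SMU2 (−0.20 and −0.32) and POT1 (0.67 and 0.31) did not pass. Beside ADH2, 1 of 4 neighbours passed, the mitochondrial transporter gene ATM1 with salt (−0.58). YME2, UBP15 and SCW10 did not pass in either condition. AEP2 near CAT8 was lower in both conditions (−1.38 and −1.11), as was DMA2 near MLS1 (−0.74 and −1.27). NCS2, also near MLS1, was at least 4.89-fold lower with salt. Higher in htz1D without salt were PNC1 near MIG1 (1.74), RGI1 near ICL1 (1.01) and SPR28 near ADR1 (1.45), and with salt SEC61 near FBP1 (0.50).

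**Figure D5:**
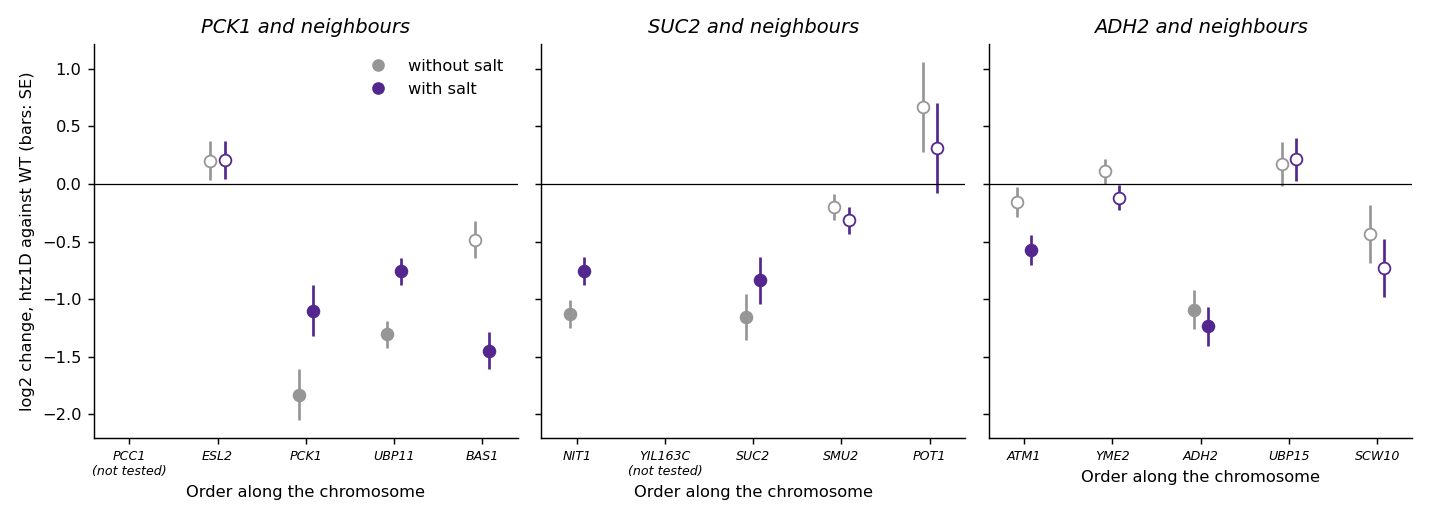
Log2 change, htz1D against WT with SE bars, of PCK1, SUC2, ADH2 and the 2 protein-coding genes on each side in chromosome order. Filled points passed at limma adjusted p under 0.05. UBP11 and NIT1 lie below 0 in both conditions with PCK1 and SUC2, whereas the genes directly beside ADH2 are open and near 0.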

How the data were processed

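Cy3 cRNA was hybridised to Agilent Yeast (V2) 8x15K arrays, per the labels' protocols. The deposited scanner files hold spot intensity values from Feature Extraction 10.7.3.1, background-subtracted and detrended, per the file headers. The deposited value table holds log2 values of 6187 probes by the authors; no source used here states its normalization, and the submitters' processing notes name limma.

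Processed intensities were scaled to each array's 75th percentile and log2-transformed. Control spots and 86 flagged spots were left out and the 2 spots of a probe averaged. Per array the 75th percentile was 2740 to 4290, with 82.2 to 88.9% of its spots above background. No spot was saturated. A gene was tested, by its brightest probe, where some group had it well above background on both its arrays. limma 3.58.1 in R 4.3.3 fitted 4 group means over 8 arrays with 5 contrasts. Only the salt contrast in WT was checked on simulated data, with independent noise drawn from the fitted spread. The number of arrays limits precision.

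The 10 genes and the lists were chosen with earlier results of these data known. Named were all 10, per list and comparison up to 4 passing genes with the largest change, and the 3 nearest patterns. Gene names came from the R64 table (5748 of 6256 probes matched). Normexp used the median signal with offset 50. Planned sequence descriptions were not made.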

Additional observations from a re-analysis of the deposited data

How the results depend on the processing

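With 2 arrays a group, and PCK1, FBP1 and MLS1 near background, signal over background limits what can be seen. The normexp background correction moved most values. It left 1 of the 9 genes called for salt in htz1D (MDH2), 0 for the deletion without salt and 1 with salt (MDH2), and the sign turned for PCK1 (−0.62 for salt in htz1D, 0.37 for the deletion without salt, −1.03 in the interaction), FBP1 (−0.66) and ADH2 (−0.44) for salt in htz1D, CAT8 (0.27) for the deletion without salt, and REG2 (−0.090) and IMA1 (−0.42) for salt in htz1D and ERT1 (0.045) for the deletion without salt. On htz1D no-salt replicate 2 the normexp log2 values of dim probes were −2.31 for PCK1, −2.35 for MLS1 and −2.43 for the deleted HTZ1. On replicate 1 of that group they were −4.27, −4.06 and −5.33. Whether this array accounts for the turned signs and lost calls was not tested. Of 81 changes of list genes 44 passed under normexp. The median of all genes moved under it by −0.191 for salt in htz1D, 0.15 for the deletion without salt and −0.141 in the interaction. Quantile scaling turned the interaction of ADH2 (0.028) and MIG1 (0.0212) and the difference of ICL1 with salt (0.0101), and the authors' deposited values turned the interaction of FBP1 (0.08) and MIG1 (0.045) and ICL1 with salt (0.015), none of them called. With 1 array left out, 2 to 5 genes were called for the deletion with salt (2 without WT salt replicate 2), 2 to 4 without salt, 3 to 5 for salt in WT and 4 to 7 for salt in htz1D. Values that changed sign with an array left out ranged in the interaction from −0.34 to 0.052 (ADH2), −0.70 to 0.15 (ADR1), −1.32 to 0.69 (CAT8), −1.05 to 0.28 (FBP1) and −0.17 to 0.14 (MIG1), for the deletion with salt from −0.51 to 0.0462 (ADR1) and −0.0231 to 0.14 (FBP1), and without salt from −0.39 to 0.46 (ADR1), −1.78 to 0.23 (CAT8), −0.22 to 1.11 (FBP1) and −0.0136 to 0.38 (MDH2). Of these, −1.78 for CAT8 passed (without htz1D no-salt replicate 2), as did 1.11 for FBP1 (without WT no-salt replicate 2). ADR1 for salt in htz1D did not pass without htz1D salt replicate 2 (1.01, adjusted p = 0.0568) nor under normexp (0.99). The salt changes of CAT8, ADR1 and ICL1 in WT passed in all 13 alternatives. Replicate numbers correlated within pairs of groups at r = 0.176 to 0.422 over genes, but they share only a number. The replicate block called 6 genes for salt in WT and 8 in htz1D, where PCK1 in WT, MIG1 in both and ADH2 in htz1D then passed. Counts over all genes with the deletion were 738 without salt and 1183 with salt, and became 185 and 324 under normexp and 1395 and 1829 with the block, and 271 to 663 and 438 to 1435 with 1 array left out. The interaction count of 54 became 1 under normexp, 19 in the authors' values, 13 with no filter, 141 with the block and 4 to 102 with 1 array left out. For salt, carbon-use counts of 11 and 10 in WT and htz1D became 5 and 4 under normexp, and maltose and galactose counts of 5 and 5 became 1 and 2. The GID count of 8 in each strain became 6 under normexp and was 8 in every other alternative.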
